A study of Mus musculus with 8 samples.

Results

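The chemokine system was described as the 60 gene symbols in the count files that begin with Ccl, Ccr, Ccrl, Cxcl, Cxcr, Cx3cl, Cx3cr, Xcl or Xcr followed by a digit, out of 23433 symbols in all. They comprise 24 CC ligands, 12 CXC ligands, 2 ligands of the CX3C and C classes, 19 signalling receptors and 3 atypical receptors. The members were chosen by name.

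The study sequenced total RNA from 8 libraries of sorted newborn mouse skin cells, 2 populations from each of 4 pups at postnatal day 0.5. Hair germ, the epithelial bud of the follicle, was sorted as K14RFP-positive cells with high alpha6 integrin and high P-cadherin. Interfollicular epidermis (IFE), the epithelium between follicles, was sorted in the same way with low P-cadherin. Transgenic pups 4 and 6 carried pTRE2-200bcl, a doxycycline-responsive miR-200 construct, together with K14rtTA, the doxycycline-dependent activator driven by the keratin 14 promoter. Control pup 3 carried K14rtTA alone and control pup 5 carried pTRE2-200bcl alone, so pup and genotype cannot be told apart among controls. All pups had a mixed strain background, and doxycycline chow was given to every mother during pregnancy. Each of the 4 groups therefore held n = 2 libraries from 2 animals. Values below are in the order pup 3 then pup 5 for controls and pup 4 then pup 6 for transgenics, in counts-per-million (CPM) of assigned reads with TMM scaling.

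Chemokines are small secreted proteins that guide migrating cells, and are named for the spacing of the cysteines near their amino terminus. Signalling receptors couple to inhibitory G proteins and turn a chemokine gradient into movement, whereas atypical receptors bind chemokines without that coupling and take them up. In skin, keratinocytes make several chemokines constitutively or on injury, and resident macrophages, Langerhans cells and T cells carry the receptors.

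MicroRNAs pair through a seed at bases 2 to 8 with sites in the 3′UTR of a transcript. The 5 mature members of the family that the transgene belongs to are shown because their seeds define the sites that were searched for in chemokine transcripts. Sequences are from RefSeq on GRCm38.p6, written 5′ to 3′ with the seed in capitals. By seed they form 2 groups, miR-141 with miR-200a and miR-200b with miR-200c and miR-429.
mmu-miR-141-3p: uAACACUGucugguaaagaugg
mmu-miR-200a-3p: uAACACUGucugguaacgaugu
mmu-miR-200b-3p: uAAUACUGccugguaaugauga
mmu-miR-200c-3p: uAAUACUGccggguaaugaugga
mmu-miR-429-3p: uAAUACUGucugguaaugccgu
Among 57 members with a 3′UTR in GENCODE M21, 7 (12.3%) held the site CAGTGTT of the first seed, against 17.1% of 20957 genes. The site CAGTATT of the other seed was held by 6 members (10.5%), against 13.2% of the same genes. Members thus held neither site more often than genes at large. At least 1 of the sites was held by 11 of the 57 members (19.3%) and by 25.7% of all these genes. Of the 9 members that rose in transgenic IFE (below), 5 held at least 1 and 0 of the 3 that fell did, a difference that was not tested. One 29-base window is shown for 4 of the 5, with the match to a seed in capitals, because they are transcripts that rose while carrying a seed match.
Cxcl2, CAGTGTT at position 1291 of 1494: tatttaggtttCAGTGTTtgtaaactgta
Cxcl16, CAGTGTT at position 906 of 1421: gcctgcctctgCAGTGTTgggattaaagg
Ccl9, CAGTATT at position 416 of 2465: agtagtatttaCAGTATTctttataaatt
Ccr1, CAGTATT at position 696 of 1300: gtaaattagtgCAGTATTtctgaaaagga
A match is a description of letters, and binding was not measured here.

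Promoters of 3 neighbouring CXC ligand genes on chromosome 5, Cxcl1, Cxcl2 and Cxcl3, are shown because Cxcl2 rose in both populations while its neighbours Cxcl1 and Cxcl3 did not pass the test. Each runs from 250 bases before to 50 after the start of the RefSeq transcript on GRCm38.p6, plus strand, with matches to GGG, any 3 bases and TTCC, a motif of the NF-kB type, or to GAGGAAG, a motif of the PU.1 type, in capitals on either strand.
Cxcl1, chr5:90890995-90891294: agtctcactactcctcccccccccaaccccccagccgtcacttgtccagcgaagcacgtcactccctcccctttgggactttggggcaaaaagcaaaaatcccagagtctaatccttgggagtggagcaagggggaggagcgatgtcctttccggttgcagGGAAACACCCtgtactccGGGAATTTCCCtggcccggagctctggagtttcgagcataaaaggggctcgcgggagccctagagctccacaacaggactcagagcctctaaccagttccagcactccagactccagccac
Cxcl2, chr5:90903649-90903948: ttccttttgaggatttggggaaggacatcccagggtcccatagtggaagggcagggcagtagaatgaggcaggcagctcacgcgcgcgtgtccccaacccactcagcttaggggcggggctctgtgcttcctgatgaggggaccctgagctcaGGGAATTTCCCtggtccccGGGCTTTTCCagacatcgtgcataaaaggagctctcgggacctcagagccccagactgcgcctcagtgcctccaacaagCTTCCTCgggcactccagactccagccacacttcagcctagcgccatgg
Cxcl3, chr5:90785851-90786150: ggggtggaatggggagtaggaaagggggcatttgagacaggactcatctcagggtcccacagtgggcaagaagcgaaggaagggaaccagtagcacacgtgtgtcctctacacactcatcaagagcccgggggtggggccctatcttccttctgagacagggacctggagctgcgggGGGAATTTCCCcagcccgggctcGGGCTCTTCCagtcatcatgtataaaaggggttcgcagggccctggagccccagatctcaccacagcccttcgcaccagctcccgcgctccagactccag
All 3 hold the run GGGAATTTCCC, which matches the NF-kB type motif on both strands at overlapping positions. Among the 53 promoter entries of the 44 members with one, 9 (16.98%) held the NF-kB type motif, against 5.56% of 32851 promoters. The PU.1 type motif was found in 8 (15.1%) against 13.6%, and TGANTCA, a motif of the AP-1 type, in 10 (18.9%) against 7.81%.

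The feature named miR200primary served as a check of the labels. It had 2 and 21 counts in control hair germ, 22 and 31 in control IFE, 5973 and 6581 in transgenic hair germ and 4499 and 9449 in transgenic IFE. All 4 transgenic libraries were thus far above all 4 controls, as labelled. Each library had between 7109871 and 14039583 assigned counts, so that a gene with 0 counts in a library could stand at up to 0.199 to 0.522 CPM (3 counts, counting error only). The ribosomal RNA precursor Rn45s took 30.6% of counts in the IFE library of control pup 3 and 29.0% in that of transgenic pup 4, against 3.56% to 13.0% in the other 6, and results without both of these libraries are given beside the counts they touch. Keratinocyte genes marked all libraries, with Krt14 between 4272 and 11670 CPM. Cdh3, which encodes the P-cadherin used in the sort, stood at 352 and 436 CPM in control hair germ and 293 and 386 in control IFE, and at 421 and 575 in transgenic hair germ and 281 and 309 in transgenic IFE. It was thus higher in hair germ in each of the 4 pups, by log2 differences of 0.22 (SE 0.23, edgeR adjusted p = 0.804) in controls and 0.76 (SE 0.23, adjusted p = 0.0889) in transgenics that did not pass the test.

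Of the 60 members, 13 had 0 counts in all 8 libraries and 16 were detected in all 8. The 13 were Ccl8, Ccl11, Ccl21a, Ccl21b, Ccl21c, Ccl26, Ccl27b, Ccr1l1, Ccr8, Cxcl13, Cxcl17, Cxcr6 and Xcl1. Another 14 had between 1 and 77 counts summed over the libraries and fell under the filter on low counts, among them the T cell attractant Ccl17 (6 counts), Ccl20 (77), Ccr7 (7) and Ccr10 (3). The other 10 were Ccl1, Ccl5, Ccl7, Ccl19, Ccl24, Ccr3, Cxcl5, Cxcr1, Cxcr3 and Cxcr5, with 1 to 25 counts each. The remaining 33 were tested. A gene needed reads in only 1 group to be tested, so members that are high in a single group are over-represented among the 33. Ccl21a, Ccl21b and Ccl21c, and likewise Ccl27a and Ccl27b, are near-identical copies whose reads may be split or discarded, so their counts are uncertain.

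**Figure D1:**
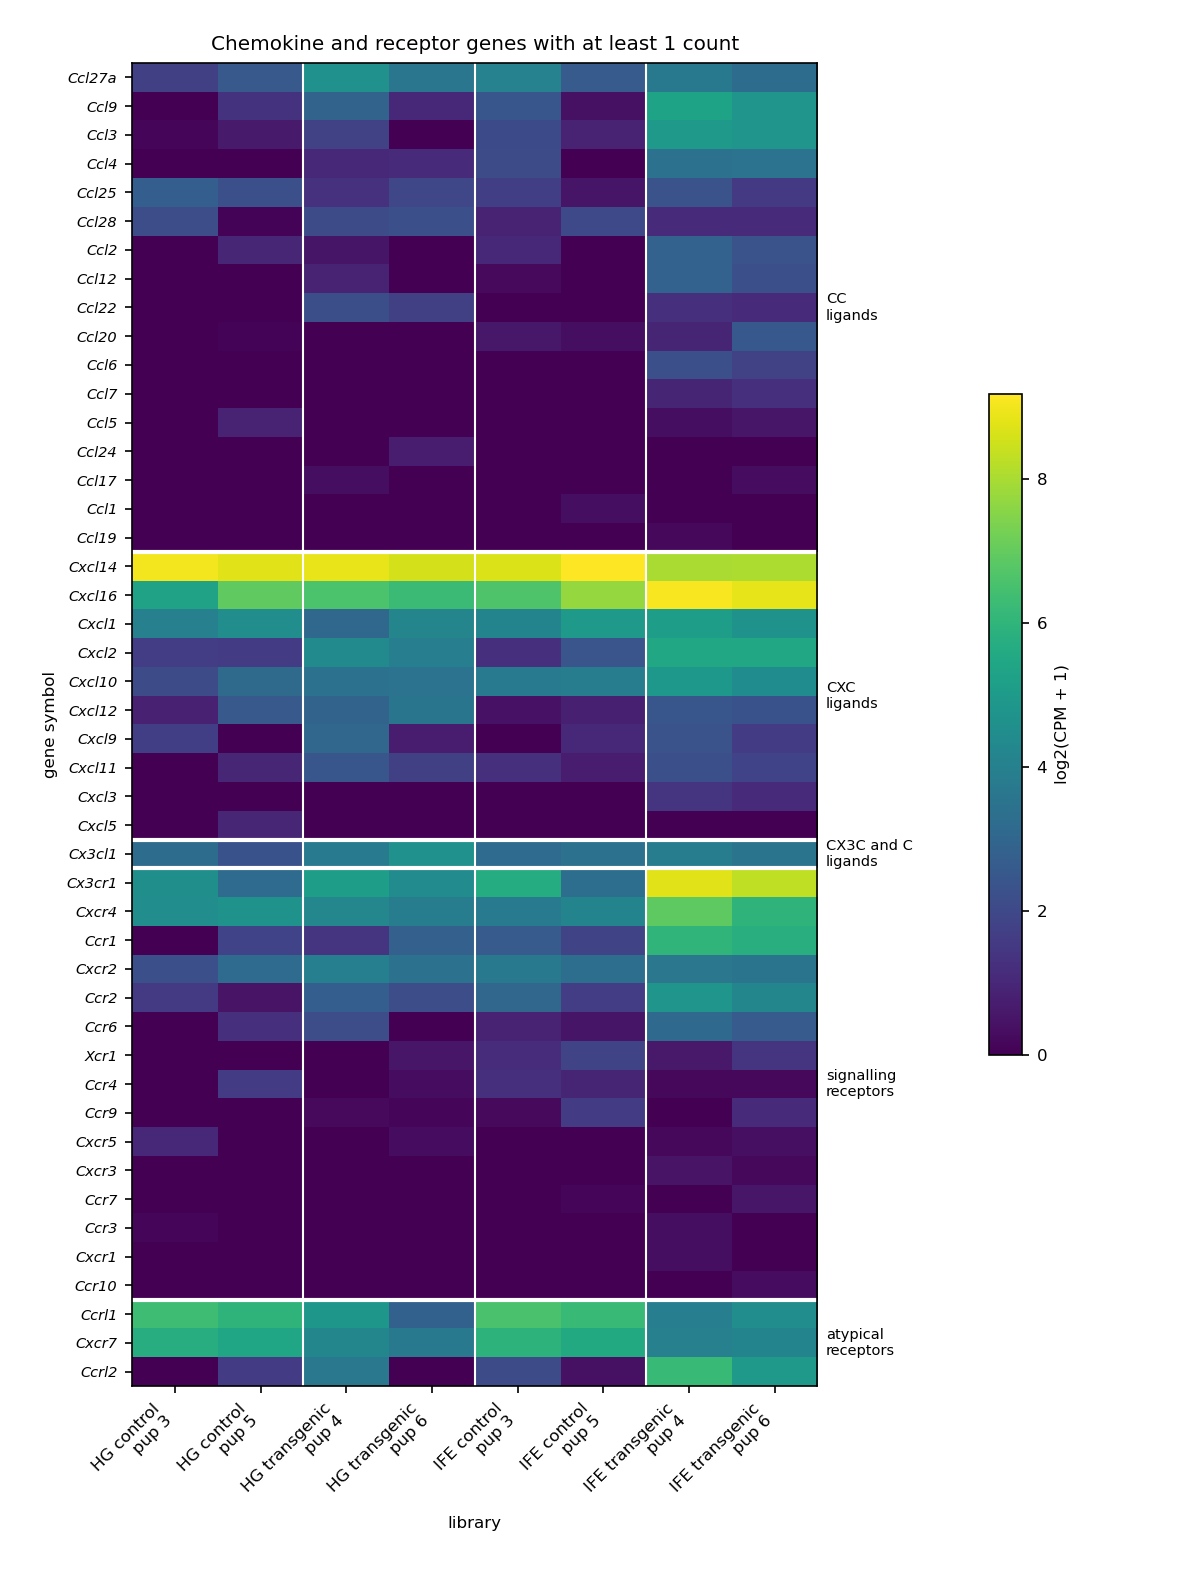
Level of 46 members with at least 1 count, as log2(CPM + 1) by colour, in rows by class and in columns by library of hair germ (HG) and interfollicular epidermis (IFE). Cxcl14 is bright in every column, while Cxcl16, Cx3cr1 and several CC ligands and receptors are brightest in the 2 transgenic IFE columns and Ccrl1 and Cxcr7 are brighter in control than in transgenic columns.

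Per kilobase of exon, Cxcl14, a ligand that epithelia make without stimulation, was the most abundant member in 3 of the 4 groups, at group means of 262 CPM per kb in control hair germ, 233 in transgenic hair germ, 273 in control IFE and 143 in transgenic IFE. Cxcl16, a membrane-bound ligand, stood at 26.5, 28.03, 52.0 and 167 CPM per kb in the same order and was above Cxcl14 in transgenic IFE. Cx3cr1, the fractalkine receptor of monocytes and macrophages, was at 3.48, 6.05, 6.61 and 82.5 CPM per kb, and Cxcr4, the receptor of Cxcl12, at 12.9, 8.86, 8.07 and 49.9. In both control groups Cx3cr1 was below the atypical receptors Ccrl1 (13.2 and 15.4 CPM per kb) and Cxcr7 (13.8 and 15.8). Cxcl14 alone made up 49.3% to 66.1% of all member CPM in the 4 control libraries and 57.5% and 60.2% in transgenic hair germ. In transgenic IFE it made up 13.8% and 17.7%. The CPM summed over all members was 776 ± 7.57 (SD, n = 2) in control hair germ, 725 ± 128 in transgenic hair germ, 937 ± 131 in control IFE and 1678 ± 256 in transgenic IFE. Both transgenic IFE libraries were above the other 6.

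In hair germ, the transgenic libraries had more RNA of the neutrophil attractant Cxcl2 and less of the atypical receptor Cxcr7 than controls, and no other member passed the test. The comparison asks which members differ when the miR-200 transgene is active. With edgeR, 1 of 33 tested members was higher and 1 was lower at an adjusted p under 0.05. Over all 14176 genes tested, 0.762% were higher and 0.19% were lower (0.952% in either direction). At an unadjusted p under 0.05 there were 9 of the 33 members, against 2426 of the 14176 genes. DESeq2 called 5 members, with Ccl22 and Ccrl1 among those added. The median log2 fold change of the tested members was 1.33 against 0.04 over all genes, and it was also 1.33 over 30 members with those at 0 in 1 group set to their bound and 3 members at or under the floor left out. It describes the members that passed the filter and no more. The count of called members was 0 without the 2 libraries rich in Rn45s, and 0 without both libraries of pup 4.

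In IFE, transgenic libraries had more RNA of 9 members and less of 3. The comparison puts the same question to the second population. Among those that rose were the ligands Ccl3, Ccl9, Cxcl2 and Cxcl16, the receptors Ccr1, Cx3cr1 and Cxcr4, and the atypical receptor Ccrl2. Those that fell were the ligand Cxcl14 and the atypical receptors Ccrl1 and Cxcr7. Of the 33 tested members, 27.3% were higher and 9.09% lower by edgeR, against 4.99% and 1.35% of all genes tested (6.34% in either direction). There were 20 of the 33 members at an unadjusted p under 0.05, against 2456 of 14176 genes, and DESeq2 called 10 of the 12. Ccr1 and Ccrl2 were not among those 10. The median log2 fold change was 2.39 against -0.01 over all genes, also with the 3 members at 0 in 1 group set to their bound. Without the 2 libraries rich in Rn45s, 1 member (Cx3cr1) passed, and without both libraries of pup 4 also 1 (Cxcl2).

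**Figure D2:**
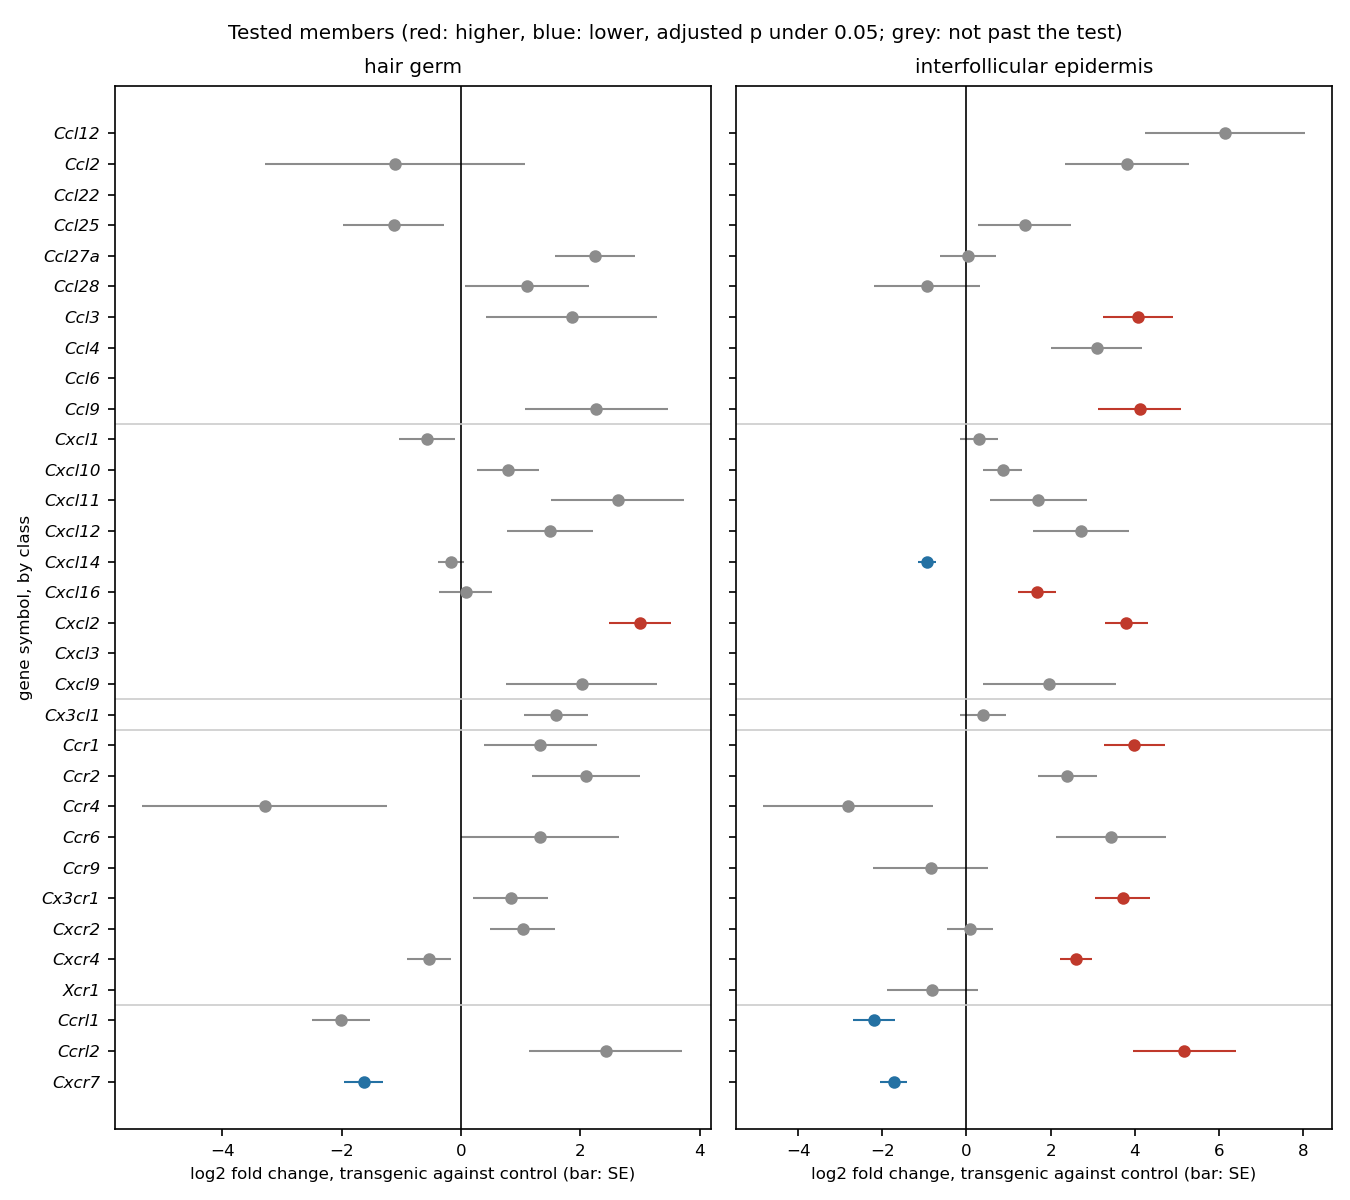
Log2 fold change of transgenic against control with its SE (bars) for tested members, by class, in hair germ (left) and interfollicular epidermis (right), with the axes of the panels on different scales. Members at 0 in both libraries of an arm have no point. Red points rose and blue points fell past the test: 1 red and 1 blue in hair germ, 8 red and 3 blue in interfollicular epidermis.

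Among CC ligands, 2 of 10 tested rose in IFE and 0 passed in hair germ. Ccl3 (chr11:83647844-83649355), a ligand of Ccr1 that activated macrophages release, stood at 3.13 and 0.85 CPM in control IFE and at 30.3 and 26.8 in transgenic IFE. The groups did not overlap, and the log2 fold change was 4.08 (SE 0.84, edgeR adjusted p = 0.00901). In hair germ Ccl3 was low in both groups, at 0.09 and 0.60 CPM in controls and 2.46 and 0 in transgenics, which overlap.

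Ccl9 (chr11:83572919-83578636), a Ccr1 ligand of myeloid cells, was at 4.53 and 0.34 CPM in control IFE and 38.8 and 27.0 in transgenic IFE. Every transgenic value exceeded every control value, with a log2 fold change of 4.12 (SE 0.99, edgeR adjusted p = 0.0255). In hair germ its values overlapped, at 0 and 1.53 CPM in controls and 6.68 and 1.09 in transgenics. Both genes lie in a run of 5 members on chr11:83525778-83664683 (Ccl5, Ccl9, Ccl6, Ccl3 and Ccl4), of which 4 were tested.

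The neighbours Ccl4 and Ccl6 were described by their counts, since each had a control group at 0. Ccl4, a macrophage chemokine close to Ccl3, had 0 and 0 counts in control hair germ and 12 and 10 in transgenic hair germ, at least 9.88-fold higher against a floor of 3 counts over the group. In IFE it had 19 and 0 counts in controls and 73 and 135 in transgenics, with a log2 fold change of 3.09 (SE 1.08, edgeR adjusted p = 0.136). Ccl6, a myeloid CC ligand, had 0 counts in controls and in transgenic hair germ, and 28 and 32 counts in transgenic IFE, at least 16.97-fold higher. The transgenic IFE libraries were thus the only libraries with reads of Ccl6, although its test did not pass (edgeR adjusted p = 0.139).

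Ccl22, which attracts T cells through Ccr4, had no counts in any control library. It had 41 and 19 counts in transgenic hair germ, at least 26.9-fold higher, and 10 and 15 in transgenic IFE, at least 7.07-fold higher. Neither comparison passed in edgeR (adjusted p = 0.108 in hair germ and 0.308 in IFE), whereas DESeq2 called it in hair germ. Its counts were present in 4 of 4 transgenic and 0 of 4 control libraries. Ccl4, Ccl6, Ccl22 and Cxcl3 met the part of the naming rule that asks for 0 counts in controls, so such splits are no support for a difference.

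Ligands that textbooks place in keratinocytes did not share a direction that passed the test. Ccl27a, which keratinocytes make to attract T cells carrying Ccr10, stood at 2.37 and 4.92 CPM in control and 23.8 and 11.1 in transgenic hair germ. These did not overlap, but the log2 fold change of 2.24 (SE 0.66) did not pass the edgeR test (adjusted p = 0.125), and in IFE the values overlapped at 16.01 and 5.26 against 12.3 and 8.38 CPM. Ccl20, which calls Langerhans cells and T cells through Ccr6, had 0 and 1 counts in control hair germ, 0 and 0 in transgenic hair germ, 3 and 3 in control IFE and 7 and 63 in transgenic IFE, so that 1 library held nearly all of its reads. Ccl2, the monocyte attractant that signals through Ccr2, had 6 and 0 counts in control IFE and 48 and 54 in transgenic IFE. This 14.4-fold ratio of summed counts (95% interval 6.40 to 40.2, counting error only) did not pass the edgeR test (adjusted p = 0.166). In hair germ Ccl2 had 0 and 15 counts in controls and 5 and 0 in transgenics, which overlap. Its neighbour Ccl12 had 1 count in control IFE and 97 in transgenic IFE without passing (adjusted p = 0.0895), and Ccl25 and Ccl28 did not pass in either population.

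Among CXC ligands, Cxcl2 was the only member that rose past the test in both populations. Cxcl2 (chr5:90903871-90905938), which recruits neutrophils through Cxcr2, stood at 2.20 and 2.06 CPM in control hair germ and 19.6 and 14.3 in transgenic hair germ. In IFE it was at 1.39 and 4.33 CPM in controls and 44.6 and 44.6 in transgenics. All transgenic libraries exceeded all controls. The log2 fold changes were 3.00 (SE 0.52, edgeR adjusted p = 0.0258) and 3.80 (SE 0.51, adjusted p = 0.000899), and the difference between them of -0.79 (SE 0.76) did not pass (adjusted p = 0.902).

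Cxcl3, another Cxcr2 ligand, was at 0 counts except in transgenic IFE, with 12 and 16 counts, at least 7.92-fold higher than control IFE (edgeR adjusted p = 0.265). Cxcl1, the third of the shown promoters, stood at 14.8 and 21.4 CPM in control hair germ, 7.56 and 17.3 in transgenic hair germ, 16.7 and 29.7 in control IFE and 33.3 and 25.4 in transgenic IFE. The groups overlapped in both populations, with log2 fold changes of -0.58 (SE 0.47, edgeR adjusted p = 0.569) and 0.30 (SE 0.45, adjusted p = 0.860). Cxcl5 in the same run had 15 counts in control hair germ of pup 5 and 0 elsewhere.

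Cxcl14 (chr13:56288643-56296551), whose product attracts monocytes and dendritic cell precursors, stood at 516 and 439 CPM in control hair germ and 469 and 382 in transgenic hair germ, which overlap. In IFE it was at 416 and 581 CPM in controls and 257 and 264 in transgenics, and both transgenic values were below both controls. The IFE log2 fold change was -0.94 (SE 0.22, edgeR adjusted p = 0.0249), and that in hair germ was -0.16 (SE 0.22, adjusted p = 0.746). The difference of 0.77 (SE 0.31) did not pass (adjusted p = 0.537). The fall in IFE was lost when library size alone was used for scaling (log2 fold change -0.79, adjusted p = 0.264), which moved the median of all genes by 0.16 in that comparison.

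Cxcl16 (chr11:70453983-70459984), the transmembrane ligand of Cxcr6, stood at 37.8 and 122 CPM in control hair germ and 94.3 and 75.0 in transgenic hair germ, with overlap. It was at 101 and 213 CPM in control IFE and 548 and 462 in transgenic IFE, where the groups were apart. The IFE log2 fold change was 1.68 (SE 0.45, edgeR adjusted p = 0.0484), and in hair germ it was 0.08 (SE 0.45, adjusted p = 0.954). Zmynd15 on the opposite strand overlaps 18.3% of its exonic bases, and with no strand setting known for the counting, reads in that stretch may belong to either gene.

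The interferon-induced ligands Cxcl9, Cxcl10 and Cxcl11, which share the receptor Cxcr3, did not pass in either population. Cxcl10 stood at 3.34 and 8.10 CPM in control hair germ, 9.76 and 10.4 in transgenic hair germ, 13.2 and 14.0 in control IFE and 29.0 and 20.9 in transgenic IFE. Transgenic values were above controls in both, with log2 fold changes of 0.78 (SE 0.52, edgeR adjusted p = 0.472) and 0.86 (SE 0.47, adjusted p = 0.417). Cxcl12, the ligand shared by Cxcr4 and Cxcr7, was low everywhere, at 0.79 and 4.98 CPM in control and 6.59 and 10.8 in transgenic hair germ, and at 0.35 and 0.76 in control and 4.45 and 3.93 in transgenic IFE. Cx3cl1, the fractalkine ligand of Cx3cr1, ran from 3.99 to 23.8 CPM, and its log2 fold change was 1.58 in hair germ (SE 0.54, edgeR adjusted p = 0.167) and 0.40 in IFE (SE 0.55, adjusted p = 0.843). These ligands were thus higher on average in transgenic groups, by differences that did not pass the test.

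**Figure D3:**
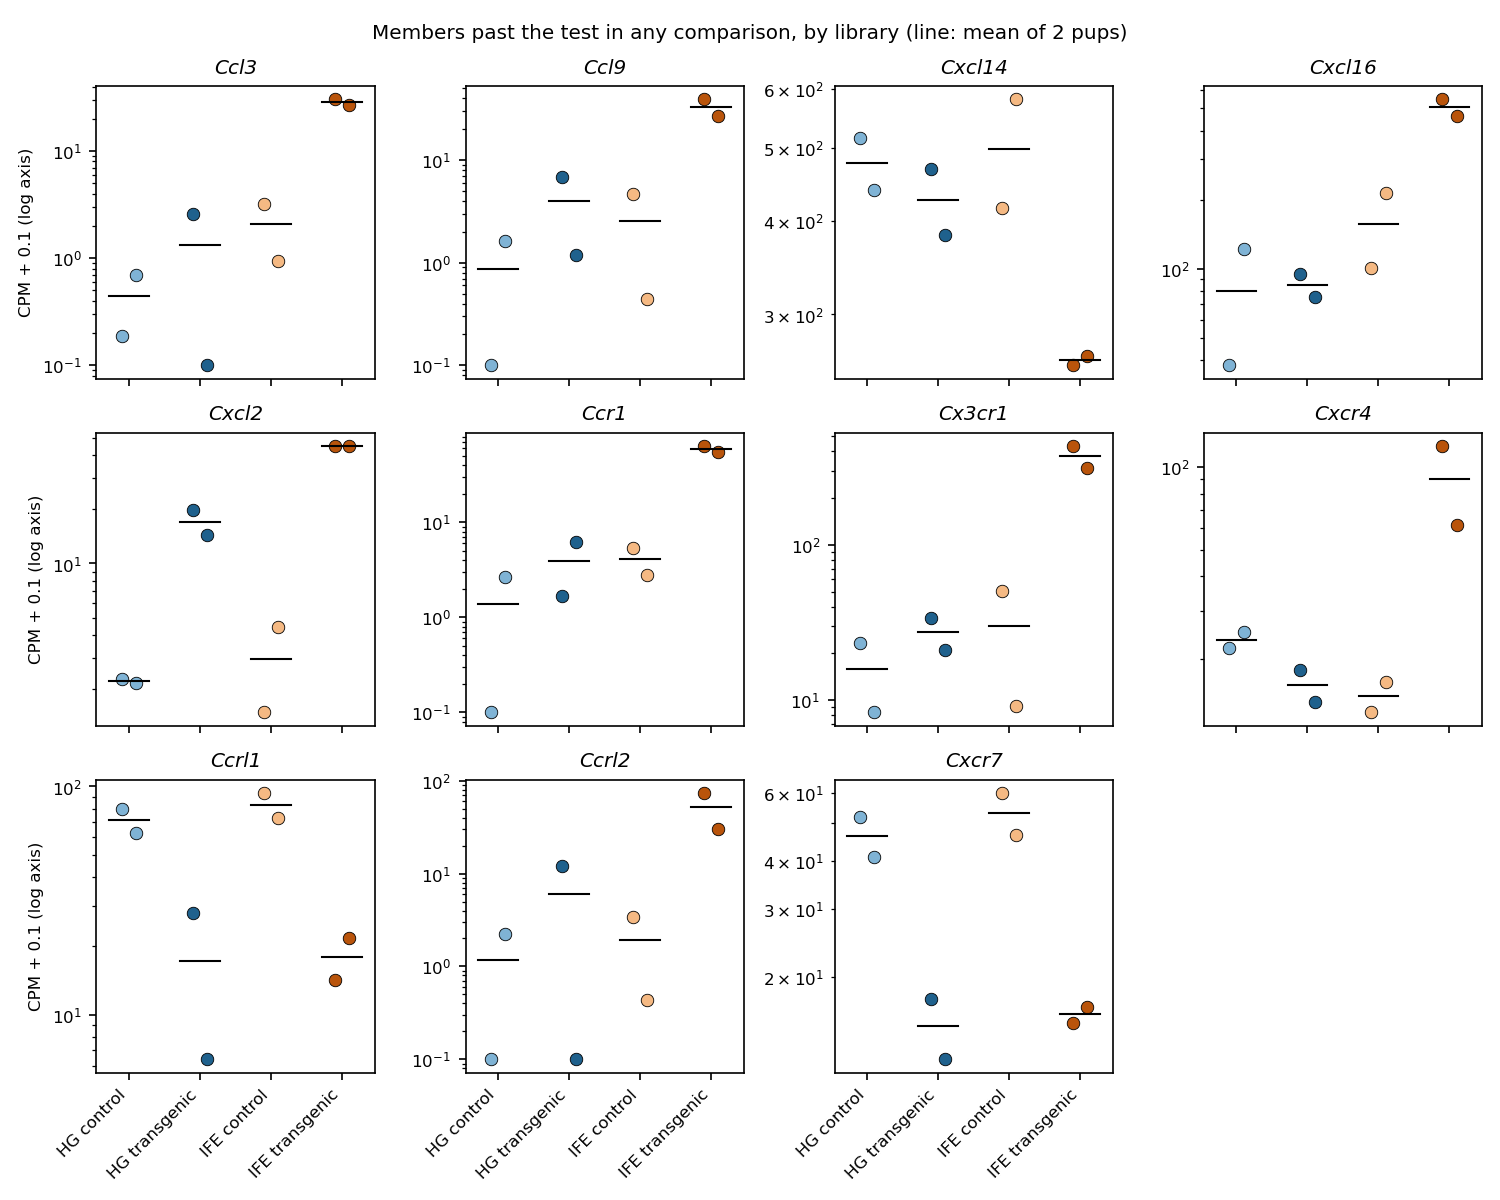
CPM + 0.1 on a log axis, with a different range in each panel, for 11 members past the test in any comparison, with 1 point per library of hair germ (HG) and interfollicular epidermis (IFE) and a line at the mean CPM of each group's 2 pups. Cxcl2 is higher, and Ccrl1 and Cxcr7 are lower, in the transgenic points of both populations, and the other risen members are highest in the 2 transgenic IFE points.

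Among signalling receptors, 4 of 10 tested rose in IFE and 0 passed in hair germ. Cx3cr1 (chr9:119901616-120069879) stood at 23.1 and 8.24 CPM in control hair germ, 33.7 and 20.8 in transgenic hair germ, 50.5 and 9.08 in control IFE and 432 and 312 in transgenic IFE. Its hair germ groups overlapped and its IFE groups were far apart. The IFE log2 fold change was 3.71 (SE 0.65, edgeR adjusted p = 0.00491), against 0.83 (SE 0.62, adjusted p = 0.534) in hair germ.

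Ccr1, a receptor of Ccl3 that monocytes and macrophages carry, also rose in IFE. Ccr1 (chr9:123962124-123968692) was at 5.22 and 2.72 CPM in control IFE and 63.1 and 54.8 in transgenic IFE, a log2 fold change of 3.99 (SE 0.73, edgeR adjusted p = 0.00640). The IFE groups did not overlap, while in hair germ Ccr1 ran from 0 to 6.05 CPM. Ccr2, the monocyte receptor of Ccl2, stood at 7.14 and 2.21 CPM in control IFE and 26.6 and 17.5 in transgenic IFE without passing the test (log2 fold change 2.39, SE 0.70, edgeR adjusted p = 0.0692).

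Cxcr4 (chr1:128588199-128592293) was the 1 member whose transgenic effect differed between the populations. It stood at 21.8 and 25.0 CPM in control hair germ and 18.1 and 13.9 in transgenic hair germ, and at 12.7 and 16.5 CPM in control IFE and 119 and 61.5 in transgenic IFE. In IFE both transgenic values were above both controls, and in hair germ both were below. The log2 fold change was 2.60 in IFE (SE 0.38, edgeR adjusted p = 0.00152) and -0.54 in hair germ (SE 0.37, adjusted p = 0.487).

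The difference of the transgenic effect, hair germ minus IFE, was -3.14 for Cxcr4 (SE 0.52, edgeR adjusted p = 0.0485). It was the only call among the 33 members (0 in the other direction), where 0.134% of all genes tested were called lower and 0% higher. Under an unadjusted p of 0.05 there were 5 of the 33 members, against 1149 of 14176 genes. With the pup as a replicate block, 3 members were called: Cxcr4, Cx3cr1 and Cxcl16. The call for Cxcr4 was lost without either IFE control library (adjusted p = 0.107 without pup 3 and 0.172 without pup 5), without either hair germ transgenic library (0.103 without pup 4, 0.274 without pup 6) and without either IFE transgenic library (0.384 and 0.0876), with the difference between -3.59 and -2.59 in these fits. No call was made without the 2 libraries rich in Rn45s.

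Receptors of lymphocytes and dendritic cells were scarce. Ccr7, which guides dendritic cells to lymph nodes, had 7 counts in all, Ccr10 had 3, and the lymphotactin ligand Xcl1 had 0. Xcr1, the receptor of cross-presenting dendritic cells, had at most 32 counts in a library, and its smallest edgeR adjusted p over the 5 comparisons was 0.498. Ccr6, the receptor of Ccl20, had 5 and 5 counts in control IFE and 58 and 70 in transgenic IFE, a 10.9-fold ratio (95% interval 5.72 to 23.2, counting error only) whose edgeR adjusted p was 0.165. Ccr4, the receptor of Ccl22, had 0 and 30 counts in control hair germ and 0 and 2 in transgenic hair germ, which overlap. Ccr9 had at most 24 counts in a library, and neither Ccr4 nor Ccr9 passed the test. Cxcr2, the receptor of Cxcl1, Cxcl2 and Cxcl3, ran from 3.69 to 14.8 CPM, with a log2 fold change of 1.03 in hair germ (SE 0.54) and 0.07 in IFE (SE 0.55) that did not pass.

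The atypical receptors Cxcr7 and Ccrl1 were lower in the transgenic libraries of both populations. Cxcr7 (chr1:90203980-90216751, now named Ackr3), which takes up Cxcl12, stood at 51.7 and 40.8 CPM in control hair germ, 17.4 and 12.1 in transgenic hair germ, 59.7 and 46.4 in control IFE and 15.1 and 16.6 in transgenic IFE. The 4 transgenic values lay below all 4 controls. The log2 fold change was -1.63 in hair germ (SE 0.33, edgeR adjusted p = 0.0425) and -1.73 in IFE (SE 0.33, adjusted p = 0.00823). The difference between them of 0.10 (SE 0.46) did not pass the test.

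Ccrl1 (chr9:104084157-104126933, now named Ackr4), which takes up Ccl19, Ccl21 and Ccl25, stood at 79.5 and 62.4 CPM in control hair germ and 27.96 and 6.29 in transgenic hair germ. In IFE it was at 93.3 and 72.4 CPM in controls and 14.2 and 21.5 in transgenics. Again every transgenic library was below every control. The log2 fold change was -2.19 in IFE (SE 0.49, edgeR adjusted p = 0.0208), and in hair germ -2.01 (SE 0.49) did not pass (adjusted p = 0.0764). Acad11 on the opposite strand overlaps 8.90% of its exonic bases.

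Ccrl2 (chr9:111054486-111057519), a chemerin-binding receptor of activated leukocytes, moved the other way. It was at 3.31 and 0.34 CPM in control IFE and 73.2 and 30.0 in transgenic IFE, groups that did not overlap, with a log2 fold change of 5.18 (SE 1.23, edgeR adjusted p = 0.0241). In hair germ it was at 0 and 2.13 CPM in controls and 11.9 and 0 in transgenics, which overlap.

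The calls rested on single libraries to different degrees. In IFE, Cxcl2, Cx3cr1 and Cxcr4 passed the edgeR test whichever of the 4 IFE libraries was left out. Ccl3 and Ccr1 lost their calls without control pup 5 alone (adjusted p = 0.170 and 0.0927), and Ccl9 without control pup 5 (0.277) or transgenic pup 4 (0.0975). Ccrl2 passed without transgenic pup 6, and not without control pup 3 (0.0545), control pup 5 (0.270) or transgenic pup 4 (0.103). Of the members that fell, Cxcl14 passed without control pup 3 and Cxcr7 without control pup 5. Cxcl14 was lost without control pup 5 (0.225), transgenic pup 4 (0.248) or transgenic pup 6 (0.207), and Cxcr7 without control pup 3 (0.0752), transgenic pup 4 (0.110) or transgenic pup 6 (0.0867). Ccrl1 and Cxcl16 lost their calls whichever IFE library was left out, with adjusted p of 0.0596 to 0.151 for Ccrl1 and 0.0611 to 0.256 for Cxcl16. In hair germ, Cxcl2 was lost, and Ccrl1 gained a call, without transgenic pup 4 (0.122 for Cxcl2), and Cxcl2 was also lost without pup 6 (0.0930). Cxcr7 was lost there without control pup 3 (0.0661), transgenic pup 4 (0.110) or pup 6 (0.175). None of these calls changed direction. Since all 8 libraries share 1 estimate of the spread, libraries of the other population also counted. Without the IFE library of either transgenic pup no member was called in hair germ, and without either control IFE library only Cxcl2 was. In IFE, Cxcl14 and Cxcl16 lost their calls without either transgenic hair germ library, and Ccr2 gained one without either control hair germ library.

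Without the 2 libraries rich in Rn45s, which leaves 1 pup in each IFE group, the IFE log2 fold changes were 5.12 for Cx3cr1 (edgeR adjusted p = 0.00360), 3.39 for Cxcl2 (0.0552), 4.35 for Ccr1 (0.0556) and 1.92 for Cxcr4 (0.172). For the members that fell they were -1.46 for Cxcr7 (0.431), -1.73 for Ccrl1 (0.392) and -1.11 for Cxcl14 (0.172). In hair germ, Cxcl2 stood at 3.00 (0.177) and Cxcr7 at -1.62 (0.231) in that fit. Directions were kept and most calls were not.

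Between the populations of control pups, no member passed the test. The comparison asks whether hair germ and IFE differ in chemokine RNA without an active transgene. With edgeR, 0 of 33 members were higher or lower in hair germ, against 0.00705% and 0% of all genes, and DESeq2 called 0. At an unadjusted p under 0.05 there were 3 of the 33 members, against 1200 of 14176 genes, a similar share. Control Cxcr7 (40.8 to 59.7 CPM) and Ccrl1 (62.4 to 93.3 CPM) overlapped between the populations.

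Between the populations of transgenic pups, 6 members were lower in hair germ than in IFE and 0 were higher. Among these were Ccl3, Ccr1, Cx3cr1, Cxcl16 and Cxcr4, against 3.75% lower and 0.875% higher over all genes tested (4.62% in either direction). The transgenic IFE libraries that enter here are those of the IFE comparison above, so the lists share their libraries. The log2 differences were -4.35 for Ccl3 (SE 0.83, edgeR adjusted p = 0.00733), -3.76 for Cx3cr1 (SE 0.64, adjusted p = 0.00615) and -2.48 for Cxcr4 (SE 0.37, adjusted p = 0.00307). With the pup as a replicate block, 9 were lower, adding Ccl9, Ccr2 and Ccrl2. Without the 2 libraries rich in Rn45s 3 were called (Ccr1, Cx3cr1 and Cxcl16), without the hair germ library of transgenic pup 4 2 (Ccl3 and Cxcr4), and without that of pup 6 0.

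Markers of myeloid cells moved with the members that rose in IFE. Of 15 macrophage markers, 13 rose in IFE and 3 in hair germ (Lyz2, Ptprc and Cd14). Their summed level was 289 to 493 CPM in control IFE and 3013 to 4068 in transgenic IFE, and 227 to 367 in control and 403 to 570 in transgenic hair germ. Ptprc, the pan-leukocyte phosphatase CD45, stood at 19.8 and 19.7 CPM in control IFE and 378 and 296 in transgenic IFE, a log2 fold change of 4.09 (SE 0.25, edgeR adjusted p = 7.78e-06). Without the 2 libraries rich in Rn45s, and likewise without pup 4, 11 of the macrophage markers rose in IFE and 0 passed in hair germ. In these bulk libraries more cells of a type and more RNA per cell cannot be told apart, and the part of myeloid RNA in the chemokine results was not tested.

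Langerhans and dendritic cell markers summed to 22.4 to 55.0 CPM in control and 389 to 521 in transgenic IFE. Of the 10, 4 were higher (Cd83, Cd86, H2-Aa and Itgax). Cd83 alone stood at 290 and 165 CPM in transgenic IFE, the largest part of both sums. Cd207, which defines Langerhans cells, stood at 0 and 0 CPM in control against 3.50 and 4.53 in transgenic IFE. Flt3 (0 and 1.02 against 6.20 and 4.08 CPM) and Zbtb46 (0.52 and 0.68 against 3.91 and 2.04) were also low and did not pass. H2-Eb1 stood at 2.26 and 0 against 2.29 and 13.3 CPM. The sums thus rest mainly on other genes than these. The list had 3 higher without the libraries rich in Rn45s and 2 without pup 4. Of 7 tested T cell and innate lymphoid markers, 1 rose in IFE (Il7r, from 5.57 and 0.76 CPM to 116 and 76.6). The list summed to 218 to 293 CPM in control and 252 to 272 in transgenic IFE, of which Gata3, which keratinocytes also express, made up 267 and 170 in control and 132 and 143 in transgenic IFE. The T cell receptor subunit Cd3d stood at 0 and 0.51 CPM in control and 0.81 and 0.76 in transgenic IFE. Cd3e and Cd3g had at most 5 counts in any of the 8 libraries and 0 in transgenic IFE. Neutrophil S100a8 was at 1.04 and 0 CPM in control and 1.21 and 0.38 in transgenic IFE. The mast cell gene Cpa3 was at 0 in all 8 libraries. Summed neutrophil markers were 2.55 to 4.35 CPM in control and 10.5 to 25.9 in transgenic IFE, with 0 of 1 tested called. Most of each sum was Csf3r, at 3.13 and 2.55 CPM in control and 23.6 and 9.14 in transgenic IFE.

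B cell markers stayed under 5 CPM in sum in every library. Of 7 melanocyte markers, 2 (Dct and Pmel) were higher in hair germ and 3 (adding Mitf) in IFE. Mitf stood at 4.18 and 3.56 CPM in control and 54.1 and 43.2 in transgenic IFE. Tyr did not rise in IFE, at 18.6 and 12.8 CPM in control and 14.8 and 11.6 in transgenic libraries. The mast cell and melanocyte gene Kit rose in both populations. Without the libraries rich in Rn45s 0 melanocyte markers passed in either population, and without pup 4 there were 0 in hair germ and 1 in IFE. Endothelial markers had 0 of 4 called in either comparison. Their sums were 3.19 to 8.43 CPM in control and 39.6 to 60.4 in transgenic hair germ, and 2.80 to 7.31 in control and 14.6 to 20.1 in transgenic IFE. Most of the transgenic hair germ sums was Flt1, at 32.6 and 56.0 CPM, while Pecam1 stood at 1.85 and 0 there. Fibroblast markers had 0 of 3 called, with sums of 81.8 to 335 CPM in controls and 39.8 to 117 in transgenics. Most of each sum was Dcn, at 69.3 to 290 CPM in controls and 32.8 to 88.0 in transgenics. Col1a1 went the other way in hair germ, at 0.09 and 1.79 CPM in controls and 7.03 and 2.18 in transgenics. Of 7 keratinocyte markers, 2 (Krt14 and Trp63) were lower in IFE, calls that were lost once pup 4 or the Rn45s-rich libraries were left out, and 0 passed in hair germ. In IFE 6 were below 0 and 1 above, with a median log2 fold change of -0.78. Their sums were 28040 and 30344 CPM in control and 14402 and 14784 in transgenic IFE. In hair germ they were 25655 and 21615 CPM in controls and 18460 and 15386 in transgenics. The part of these markers in the falls of Cxcl14, Ccrl1 and Cxcr7 was not tested.

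**Figure D4:**
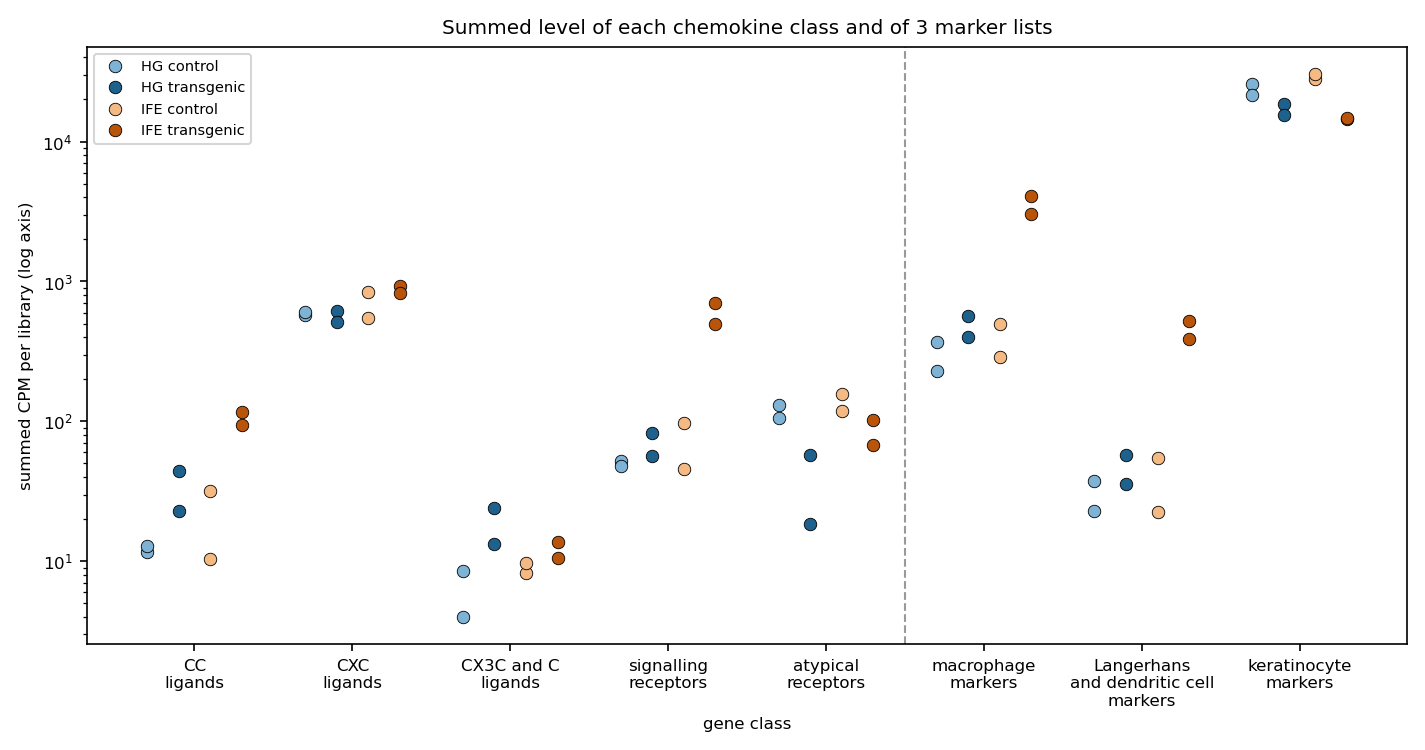
Summed CPM per library on a log axis for the 5 chemokine classes (left of the dashed line) and for 3 marker lists, with 1 point per library. Signalling receptors reach 498 and 701 CPM in transgenic IFE against 45.9 to 97.3 in the other 6 libraries, and macrophage markers are apart in the same 2 libraries.

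By class, the summed level of signalling receptors was 498 and 701 CPM in the transgenic IFE libraries and 45.9 to 97.3 in the others. CC ligands summed to 93.6 and 117 CPM in transgenic IFE and 10.4 to 44.0 elsewhere. CXC ligands did not separate the groups, at 827 and 925 CPM in transgenic IFE, 550 and 845 in control IFE and 513 to 619 in hair germ. Atypical receptors summed to 105 to 156 CPM in controls and 18.4 to 102 in transgenics, a narrow gap. The sum joins Ccrl1 and Cxcr7, which were lower in transgenics, with Ccrl2, which rose in IFE. Ccrl2 made up 73.2 of the 102 CPM in IFE of transgenic pup 4.

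Other genes of chemokine signalling were taken from lists of G proteins, effectors, desensitising proteins, NF-kB proteins and cytokines. Their counts, like those of the marker lists above, stand beside the shares of all genes tested, 4.99% higher and 1.35% lower in IFE and 0.762% and 0.19% in hair germ. Among 30 tested effectors that act downstream of chemokine receptors, 13 rose and 0 fell in IFE (median log2 fold change 0.82), and 0 passed in hair germ (median 0.30). Dock2, the exchange factor that activates Rac in leukocytes, was at 6.27 and 4.58 CPM in control IFE and 113 and 95.9 in transgenic IFE (log2 fold change 4.31, SE 0.40, edgeR adjusted p = 0.000163). Its partner Elmo1 rose by a log2 fold change of 2.87 (SE 0.31, edgeR adjusted p = 0.000253) and the leukocyte lipid kinase subunit Pik3cg by 3.74 (SE 0.46, adjusted p = 0.000521). In hair germ the smallest adjusted p of the list was 0.0836, for Vav1.

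G proteins moved in both directions. Of 12 tested, 3 rose in IFE and 1 fell, and 0 passed in hair germ. Gnai2, the main inhibitory subunit of leukocytes, was at 191 and 218 CPM in control and 644 and 580 in transgenic IFE (log2 fold change 1.58, SE 0.19, edgeR adjusted p = 0.000521). Its relative Gnai1 fell from 201 and 150 CPM to 75.6 and 79.7 (log2 fold change -1.17, SE 0.23, edgeR adjusted p = 0.0114), and Gng2, a gamma subunit, rose (3.64, SE 0.72, adjusted p = 0.00975). Without pup 4, and likewise without the libraries rich in Rn45s, 1 G protein was higher and 0 were lower.

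Among 16 tested genes that damp signalling from receptors or their G proteins, 8 rose and 0 fell in IFE (median 1.74). They were led by Rgs10 (log2 fold change 4.12, SE 0.44, edgeR adjusted p = 0.000243), the arrestin Arrb2 (2.98, SE 0.35, adjusted p = 0.000440) and Rgs1 (3.91, SE 0.48, adjusted p = 0.000521). None of the 16 passed in hair germ. That count in IFE was 4 without the 2 libraries rich in Rn45s and 4 without pup 4, and the effectors gave 8 and 6 in these fits. Among related genes under other symbols, Cd74, the receptor of Mif, and Cmklr1, the signalling chemerin receptor, rose in IFE (2 of 8 tested, 1 without pup 4).

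Of 14 NF-kB subunits and inhibitors, 1 (Nfkbie, an inhibitor) rose in IFE, a share near that of all genes, with a median log2 fold change of 0.08, and 0 passed in hair germ. It did not pass with pup 4 left out, nor with the Rn45s-rich libraries left out. Inflammatory cytokines and their receptors had 8 of 20 higher and 1 lower in IFE, and 3 higher in hair germ. The 3 in hair germ were the receptor chains Csf2rb (log2 fold change 2.76, SE 0.40, edgeR adjusted p = 0.0165), Tnfrsf1b (5.00, SE 0.80, adjusted p = 0.0171) and Il10ra (3.80, SE 0.59, adjusted p = 0.0179), and all 3 also rose in IFE. The 1 that fell in IFE was Il33, an alarmin of keratinocytes, at 18.6 and 20.0 CPM in controls and 5.66 and 4.76 in transgenics (log2 fold change -1.91, SE 0.50, edgeR adjusted p = 0.0430). Without the 2 libraries rich in Rn45s, and likewise without pup 4, the cytokine list had 5 higher and 0 lower in IFE and 0 in hair germ.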

How the data were processed

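Values start from the deposited read counts, whole numbers for each symbol in each library. TopHat, HTSeq and DESeq2 on mm10 (GRCm38) are named per the submitters' processing notes. The sources used here do not give their versions or the strand mode of the counting. The authors' deposited normalized signal matrix equals these counts divided by 1 constant per library and was used only as a check. The 5 summary lines per file were left out. Tests used edgeR 4.0.16 in R 4.3.3: TMM scaling, filterByExpr by group (14176 genes), 4 group means over 8 libraries, the quasi-likelihood F test (legacy set to FALSE), two-sided, Benjamini-Hochberg over all genes tested, threshold 0.05. SEs were obtained by dividing each absolute log2 fold change by the root of its F. CPM divides counts by assigned counts times the TMM factor. Exon lengths and 3′UTRs came from GENCODE M21, which matched 59 members, 2 under other symbols. DESeq2 1.42.0 and other settings were alternatives. The pup numbers mark the same animal in both populations. The deviations of same-numbered libraries correlated at 0.117 (controls) and 0.0868 (transgenics) over the tested genes, and at 0.394 and 0.191 over the 7365 whose mean log2 CPM was 4 or more. Members, lists and the naming rule were chosen with earlier results of these data known. Named are members past the test, the 12 with the highest mean log2 CPM, those at 0 in both controls of a population with at least 10 counts in each transgenic library, and listed skin genes; from each list of other chemokine-system genes, up to 3 by smallest p in each transgenic contrast. Marker genes and Il33 were named after their values were seen. Scripts were tested on simulated data. One member is not reported here by name or value, in text or figures, and remains in the counts, sums and medians.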

Additional observations from a re-analysis of the deposited data

Results flagged for a closer look

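The transgenic effect in hair germ minus that in IFE (log2) passed the edgeR test for 4 genes of the members and lists. It was -3.14 for Cxcr4, the only member. Among genes outside the family it was -3.75 for the Rac activator Dock2, -2.57 for its partner Elmo1 and -2.69 for the leukocyte gene Ptprc. Each was higher in transgenic than in control IFE, and the macrophage marker sums given in the report moved with them.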

How the results depend on the processing

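In hair germ, transgenic against control, 2 members were called. The count was 0 with edgeR's legacy method, 0 without both libraries of pup 4, 0 without the 2 libraries rich in Rn45s and 0 with the 4 libraries of the comparison alone, and 5 with DESeq2. Leaving out 1 library of the comparison gave 0 to 2. In IFE, 12 were called, 5 with the legacy method, 1 without pup 4, 1 without the libraries rich in Rn45s and 4 to 8 with 1 library left out. Between populations of transgenic pups, 6 were called, 3 with the legacy method, 0 without pup 4, 3 without the libraries rich in Rn45s, 12 with those 4 libraries alone and 0 to 5 with 1 left out. For the difference of effects, 1 was called, 0 with the legacy method, 0 with pup 4 left out, 0 with the Rn45s-rich libraries left out, 2 with library size alone and 0 to 1 with 1 library left out. With the pup as a replicate block the difference gave 3 calls and the transgenic pups 9. Between populations of control pups all alternatives gave 0. The summed CPM of control hair germ was 843 with library size alone. Leaving out a library leaves 1 sample in a group, which is assumed to vary like the others. Over the calls of single members, 262 alternative values kept the call in 158 and lost it in 104, and 0 reversed. The causes were not tested. Without the filter on low counts, 0 of the 14 members with counts under it were called.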
